A study of Mus musculus with 12 samples.

Results

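The genes of the heterogeneous nuclear ribonucleoproteins (hnRNPs) and of the serine/arginine-rich (SR) splicing factors were followed through postnatal maturation in nuclei of mouse cortical neurons. They were taken by name, as every gene whose symbol begins with Hnrnp or is Srsf followed by a number, pseudogenes left out, that was listed at all 3 ages. This gave 31 genes of the 25834 shared by the 3 age tables, 20 hnRNP genes and 11 SR genes. The values measured are polyadenylated RNA in nuclei of male pups at postnatal day 0 (P0), day 14 (P14) and day 28 (P28), with 4 biological replicates per age and 12 libraries in all. Animals of each age had the genotype CAG-Sun1/sfGFP +/-; NEX-Cre +/-, so all groups carried both transgenes and age is the difference between them that the labels describe. The library names of P0 and P14 hold WT and those of P28 do not, so the naming differs along with age. Cre driven by the NEX (Neurod6) gene acts in excitatory neurons of the cortex and hippocampus and in their precursors, and there it switches on a GFP-tagged protein of the nuclear envelope. Nuclei bearing the tag were then pulled down (INTACT, the isolation of tagged nuclei of a cell type) from forebrain cortex.

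Both families bind the nascent transcript and steer which exons are joined. SR proteins carry RNA recognition motifs and a domain rich in arginine and serine, and typically bind exonic enhancers and recruit the splicing machinery, while hnRNP proteins coat nascent RNA and often bind silencers, so the members of the families can oppose each other at the same exon. Many of these proteins also act in export, transport, translation or decay of messenger RNA, and several genes of both families hold conserved exons or introns that lead to nonsense-mediated decay of their own transcripts. The developing cortex changes its splicing widely after birth, which makes the levels of these regulators of interest across the 3 ages.

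Levels are given in scaled CPM, reads per 1000000 reads over the shared genes, put on one scale for all 12 libraries. Libraries held 13195973 to 16599217 reads (P0), 25486861 to 33611769 (P14) or 21569262 to 31215435 (P28). All 31 genes passed the filter of at least 1 scaled CPM in at least 4 libraries, which left 15734 genes for testing. Fold changes are log2 differences of (scaled CPM + 0.5), later age over earlier age, and p-values are from limma, adjusted over all 15734 genes, with 0.05 as the threshold for a call. All 3 comparisons share libraries with one another. For 6 excitatory neuron markers, none of them at 0, the summed scaled CPM ran at P0 from 1314 to 1483, at P14 from 1235 to 2117 and at P28 from 2328 to 2439. P14 replicate 2 stood apart from the other 3 P14 libraries: its mean correlation with them was 0.951, against at least 0.976 for every other library with its own age, and it lay alone on the second principal component, which held 10.5% of the variance. In this library 10 of the 11 SR genes and 11 of the 20 hnRNP genes had their highest P14 value, and 7 hnRNP genes had their lowest. How many of all tested genes were highest or lowest in this library was not counted, so these counts have no background. Since this library stood apart, counts of calls that rest on P14 are also given without it where they differ.

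Between P0 and P14 most hnRNP genes fell, while SR genes went both ways, as did all tested genes. At P14, 14 of the 20 hnRNP genes were lower than at P0 and 2 were higher, against a background of 34.5% of all tested genes lower and 34.4% higher (68.9% in either direction). The median log2 fold change of the 20 hnRNP genes was -0.87, against 0.01 over all tested genes. At least 2-fold falls past the threshold were found for 9 hnRNP genes (17% of all tested genes). Of the 11 SR genes 5 rose (45.5%), 3 fell (27.3%) and 3 did not pass, and their median log2 fold change was 0.12. The 72.7% of SR genes called in either direction were near the 68.9% of all tested genes. The count of 5 became 3 without P0 replicate 3 or without P14 replicate 4. If the 3 deposited tables, 1 per age, were compared without rescaling, which takes the median log2 fold change of all genes to 0.47, 5 hnRNP genes were higher and 10 lower, and 7 SR genes were higher and 0 lower. In these bulk samples fewer cells of a type and less RNA per cell cannot be told apart. Without P14 replicate 2 the calls were 2 higher and 15 lower among hnRNP genes, with a median of -1.05, and 4 higher and 3 lower among SR genes, with a median of 0.04. Shares of all tested genes called without this library or without rescaling are not given. Counts from these settings, here and below, therefore have no background. Libraries of the 2 ages did not overlap, with P14 lower, for 12 hnRNP genes and 2 SR genes (30.2% of all tested genes), and with P14 higher for 2 hnRNP genes and 3 SR genes (29.2%).

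**Figure D1:**
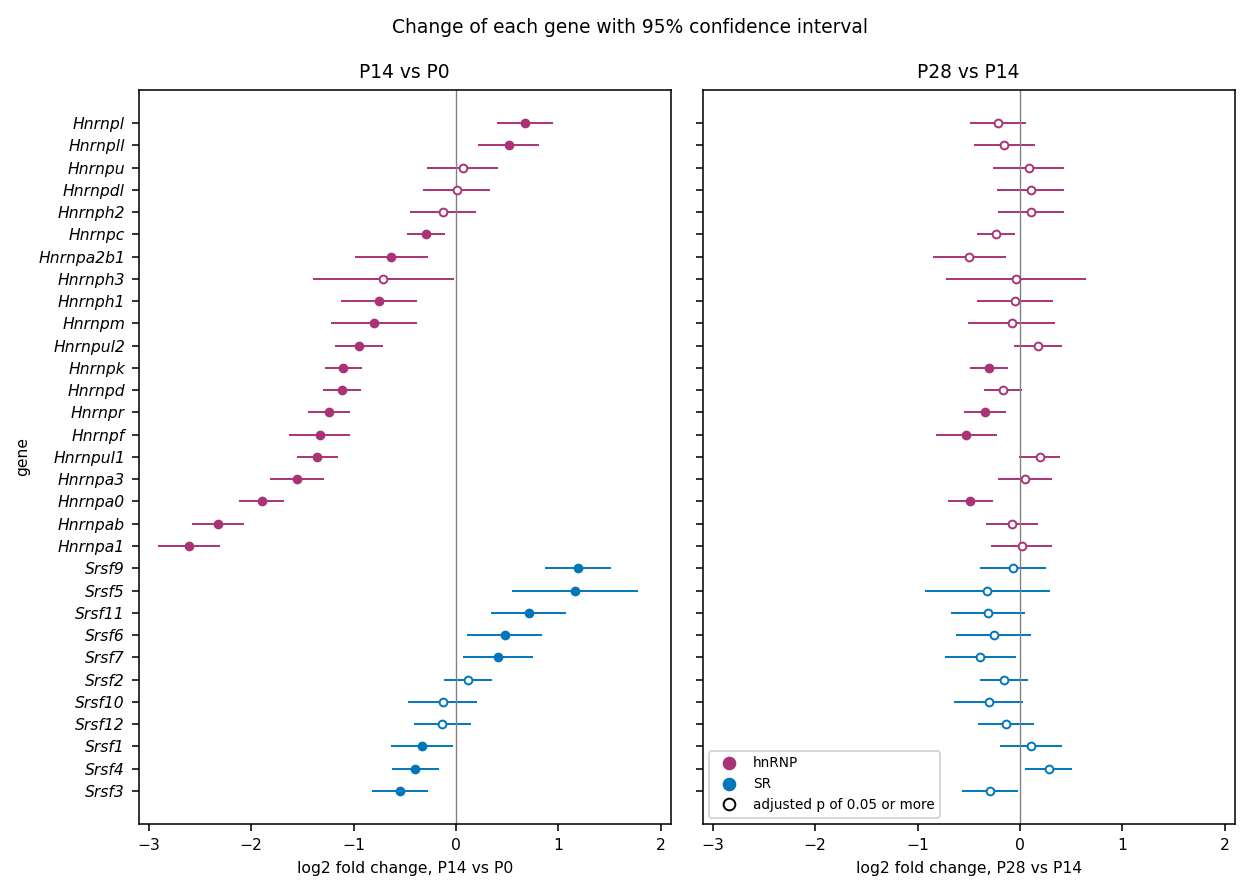
Log2 fold change of each of the 31 genes with its 95% confidence interval (not adjusted for multiple tests), P14 over P0 on the left and P28 over P14 on the right, with hnRNP genes above and SR genes below. Filled points passed an adjusted p of 0.05, which on the left were 16 hnRNP genes, 14 of them lower, and 8 SR genes, and on the right 4 hnRNP genes, all lower.

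The promoters of the steepest fallers and of the clearest risers are shown as annotated windows around a start site. Whether the counted transcripts start there was not tested. The whole windows of Hnrnpa1 and Hnrnpl lie inside the annotated spans of their genes. RefSeq windows of GRCm38.p6, 250 bases before to 50 bases after a start site, were matched for 29 of the 31 genes, with 27 windows for 18 hnRNP genes and 14 windows for 11 SR genes. Hnrnpll and Hnrnpul2 had no matched window. Hnrnpa1 and Hnrnpab had the 2 largest falls of all members between P0 and P14, and Hnrnpl and Srsf9 the largest rise of their families. Lines run 5′ to 3′ along the gene's strand, and capitals mark matches, on either strand, to the GC box GGGCGG, the CCAAT box itself, the TATA box TATAAA and GCATGCG, the core of an NRF1 site, none of which overlap one another.
Hnrnpa1 (chr15:103240147-103240446, plus strand): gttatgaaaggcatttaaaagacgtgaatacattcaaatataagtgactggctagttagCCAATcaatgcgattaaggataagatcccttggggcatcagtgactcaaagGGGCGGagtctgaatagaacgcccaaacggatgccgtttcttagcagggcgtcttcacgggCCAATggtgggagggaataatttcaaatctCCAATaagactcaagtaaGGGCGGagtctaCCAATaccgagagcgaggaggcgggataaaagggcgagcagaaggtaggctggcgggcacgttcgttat
Hnrnpab (chr11:51606832-51607131, minus strand): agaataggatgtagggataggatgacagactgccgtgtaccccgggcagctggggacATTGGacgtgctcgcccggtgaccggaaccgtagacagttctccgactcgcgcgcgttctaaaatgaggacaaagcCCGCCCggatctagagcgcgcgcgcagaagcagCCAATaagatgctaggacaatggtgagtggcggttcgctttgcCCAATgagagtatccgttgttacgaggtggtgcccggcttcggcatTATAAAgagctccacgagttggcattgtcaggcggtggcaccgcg
Hnrnpl (chr7:28810640-28810939, plus strand): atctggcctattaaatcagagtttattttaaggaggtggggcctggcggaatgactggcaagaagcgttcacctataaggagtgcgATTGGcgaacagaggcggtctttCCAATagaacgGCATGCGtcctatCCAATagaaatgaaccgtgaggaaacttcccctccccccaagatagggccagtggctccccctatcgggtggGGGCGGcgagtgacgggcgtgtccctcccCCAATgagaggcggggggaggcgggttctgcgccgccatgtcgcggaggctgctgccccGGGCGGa
Srsf9 (chr5:115326927-115327226, plus strand): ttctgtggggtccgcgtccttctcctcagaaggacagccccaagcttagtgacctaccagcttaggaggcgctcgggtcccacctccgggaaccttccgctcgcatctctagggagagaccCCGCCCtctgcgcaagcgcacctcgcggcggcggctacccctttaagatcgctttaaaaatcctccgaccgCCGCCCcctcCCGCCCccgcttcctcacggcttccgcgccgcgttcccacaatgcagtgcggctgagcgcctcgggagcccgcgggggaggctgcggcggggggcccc
Hnrnpa1 held 4 CCAAT matches and 2 GC boxes, and Hnrnpab held 3 CCAAT matches, 1 GC box and 1 TATA box. Hnrnpl, which moved the other way, also held 4 CCAAT matches, with 2 GC boxes and 1 NRF1 core. The Srsf9 window held 3 GC boxes and none of the other motifs.

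Over the families, 63.0% of hnRNP windows and 28.6% of SR windows held CCAAT, against 37.4% of the 32851 windows of all promoters. The GC box was in 77.8% of hnRNP windows and 92.9% of SR windows, against 35.7% of all. CCGGAAG, the core of an ETS site, was in 14.8% and 42.9%, against 8.86%, and TTCCCGC, an E2F motif, in 18.5% and 28.6%, against 4.6%. TATAAA was in 7.41% of hnRNP windows and 14.3% of SR windows, against 13.6% of all. The NRF1 core was in 11.1% and 14.3%, against 3.58%, and CACGTG, an E-box, in 18.5% and 0%, against 7.15%. Both families had GC-rich windows, with a median GC content of 66.3% for hnRNP and 69.0% for SR genes, against 52.7% for all promoters; the part of base composition in these motif shares was not tested. A match here describes letters in a window and says nothing of a factor bound there, and windows of one gene can overlap.

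The genes of the hnRNP A/B proteins all fell after P0. These proteins bind AU-rich and UAGG-like RNA motifs, and hnRNP A1 is the textbook antagonist of SRSF1 in the choice of splice sites. All 4 of their genes fell between P0 and P14, with a median log2 fold change of -1.72. Hnrnpa1, at chr15:103239943-103246698 of GRCm38.p6, had 509, 504, 472 and 452 scaled CPM at P0, 89.4, 55.4, 86.1 and 91.0 at P14 and 86.7, 79.2, 71.9 and 82.9 at P28. Every P14 and P28 library lay below every P0 library, and P14 replicate 2 was the lowest of all. The gene was 6.10-fold lower at P14 than at P0 (log2 fold change -2.61 ± 0.14 (SE), adjusted p = 2.88e-09), and the difference between P28 and P14 was 0.02 ± 0.14 (SE, log2; adjusted p = 0.938).

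Hnrnpa0, at chr13:58125879-58128556, encodes an intronless relative of hnRNP A1 that binds AU-rich elements. It had 356, 351, 363 and 437 scaled CPM at P0, 90.1, 114, 99.5 and 99.8 at P14 and 74.6, 76.9, 63.2 and 72.4 at P28, so the libraries of the 3 ages did not overlap. The gene fell 3.72-fold between P0 and P14 (log2 fold change -1.90 ± 0.10 (SE), adjusted p = 2.88e-09) and again 1.40-fold between P14 and P28 (log2 fold change -0.49 ± 0.10 (SE), adjusted p = 0.00597). Hnrnpa3, a close relative of hnRNP A2/B1, had 279, 312, 297 and 299 scaled CPM at P0, 115, 74.9, 117 and 103 at P14 and 111, 101, 101 and 104 at P28. Its P14 libraries were 2.93-fold below those of P0 (log2 fold change -1.55 ± 0.12 (SE), adjusted p = 1.08e-07), with no overlap.

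Hnrnpa2b1 encodes hnRNP A2 and B1, which bind trafficking elements in transported messenger RNAs. Its values were 1029.7, 891, 747 and 737 scaled CPM at P0, 428, 760.0, 458 and 588 at P14 and 388, 359, 397 and 403 at P28. P14 replicate 2, at 760.0, reached into the range of P0, while all P28 libraries lay below all P14 and P0 libraries. The gene fell 1.55-fold between P0 and P14 (log2 fold change -0.63 ± 0.17 (SE), adjusted p = 0.00403). That call was lost if the tables were compared without rescaling (-0.15, adjusted p = 0.43). The P28 over P14 change was -0.49 ± 0.17 on the log2 scale (SE) and missed the threshold, with an adjusted p of 0.0546.

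**Figure D2:**
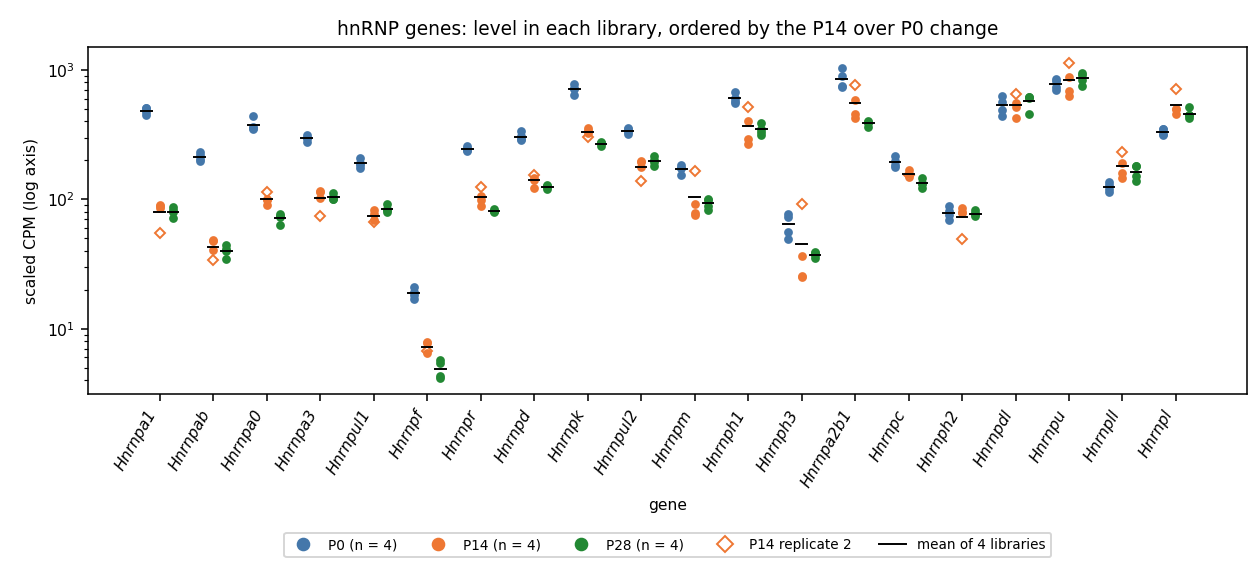
Scaled CPM on a log axis of each of the 20 hnRNP genes in each of the 12 libraries, ordered from the lowest P14 over P0 change to the highest, with P0, P14 and P28 in blue, orange and green, a dash for the mean of 4 libraries and an open diamond for P14 replicate 2. The falls of Hnrnpa1, Hnrnpab and Hnrnpa0 leave a gap between P0 and the later ages, and Hnrnpl and Hnrnpll at the right end are the 2 genes whose P14 libraries all lie above P0.

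The hnRNP D group binds AU-rich elements that govern messenger RNA decay, hnRNP D itself being known as AUF1. Its 3 genes parted: Hnrnpab and Hnrnpd fell, and Hnrnpdl did not pass in any of the 3 comparisons. Hnrnpab, at chr11:51600100-51606881, had 231, 204, 199 and 219.6 scaled CPM at P0, 47.5, 33.9, 48.1 and 40.5 at P14 and 44.0, 41.5, 34.3 and 39.9 at P28. The ages P14 and P28 overlapped each other, and both lay well below P0, with a 5.01-fold fall between P0 and P14 (log2 fold change -2.33 ± 0.12 (SE), adjusted p = 1.76e-09). Hnrnpab overlaps Phykpl in the annotation, whose own log2 fold change between P0 and P14 was -0.96. Hnrnpd had 339, 292, 286 and 306 scaled CPM at P0, 123, 154, 141 and 147 at P14 and 121, 125, 126 and 129.8 at P28, a 2.16-fold fall between P0 and P14 (log2 fold change -1.11 ± 0.09 (SE), adjusted p = 1.05e-07) with no overlap. Hnrnpdl, a paralog that also binds AU-rich RNA, had 632, 491, 441 and 567 scaled CPM at P0, 423, 652, 520.5 and 554 at P14 and 459, 611, 615 and 619 at P28. Its libraries overlapped at all ages, and the 95% confidence interval of the P14 over P0 change ran from -0.32 to 0.34 (log2).

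The genes of hnRNP C, K, M and R, which are single proteins of differing build, all fell between P0 and P14. Hnrnpk, whose KH domains bind C-rich RNA, had 644, 718, 719 and 776 scaled CPM at P0, 346, 304, 355 and 327 at P14 and 275, 273, 258 and 274 at P28. No libraries of the 3 ages overlapped, and the gene was 2.14-fold lower at P14 (log2 fold change -1.10 ± 0.08 (SE), adjusted p = 8.87e-08) and 1.23-fold lower again at P28 (log2 fold change -0.30 ± 0.08 (SE), adjusted p = 0.0268). Hnrnpr, which in motor neurons takes part in axonal transport of messenger RNA, had 236, 257, 247 and 241 scaled CPM at P0, 88.5, 124, 98.9 and 106 at P14 and 80.7, 80.3, 81.5 and 84.7 at P28. It was 2.36-fold lower at P14 than at P0 (log2 fold change -1.24 ± 0.09 (SE), adjusted p = 7.98e-08) and 1.26-fold lower at P28 than at P14 (log2 fold change -0.34 ± 0.09 (SE), adjusted p = 0.0264), again without overlap.

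Hnrnpm, a splicing regulator that binds GU-rich RNA, had 75.6, 167, 78.7 and 92.7 scaled CPM at P14, against 154, 183, 173 and 175 at P0. P14 replicate 2 lay inside the P0 range and the other 3 P14 libraries far below it, and the gene passed as lower at P14 (log2 fold change -0.80 ± 0.20 (SE), adjusted p = 0.00258). The Hnrnpm call was lost if the tables were compared without rescaling (-0.32, adjusted p = 0.149). Hnrnpc, which packages nascent RNA by binding uridine tracts, had the smallest fall of the family that passed, with 149, 153, 168 and 158 scaled CPM at P14, against 215, 183, 177 and 196 at P0. All P14 libraries were lower (log2 fold change -0.29 ± 0.09 (SE), adjusted p = 0.00808), but the direction turns to 0.19 if the deposited tables are compared without rescaling.

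Proteins of the H/F group bind runs of guanines near splice sites. Hnrnpf, the lowest hnRNP gene per kilobase of exon, had 21.1, 19.4, 17.1 and 18.1 scaled CPM at P0, 7.91, 6.72, 6.52 and 7.70 at P14 and 5.73, 4.15, 4.31 and 5.39 at P28, from 102 to 350 reads per library. It fell 2.52-fold between P0 and P14 (log2 fold change -1.33 ± 0.14 (SE), adjusted p = 1.49e-06) and 1.44-fold between P14 and P28 (log2 fold change -0.52 ± 0.14 (SE), adjusted p = 0.0197), without overlap of the ages. Hnrnph1, the highest of the group per kilobase, had 607, 671, 558 and 571 scaled CPM at P0, 265, 513, 293 and 406 at P14 and 332, 313, 351 and 391 at P28, a 1.68-fold fall between P0 and P14 (log2 fold change -0.75 ± 0.17 (SE), adjusted p = 0.00165). All P14 libraries were below all P0 libraries, with replicates 2 and 4 the highest of P14. The Hnrnph1 call was lost if the tables were compared without rescaling (-0.27, adjusted p = 0.173). Hnrnph2, the X-linked close copy of Hnrnph1, did not pass at P14 against P0 (log2 fold change -0.12 ± 0.15 (SE), adjusted p = 0.474), and its 95% confidence interval was -0.45 to 0.20. Reads of Hnrnph1 and Hnrnph2 may be exchanged where their sequences are nearly identical, and the treatment of shared reads is not given in the sources.

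Hnrnph3 rested on one library more than any other member. Its values were 25.4, 91.9, 25.1 and 36.8 scaled CPM at P14, against 77.3, 73.1, 55.8 and 49.8 at P0, so P14 replicate 2 was above every P0 library and the other 3 P14 libraries below all of them. With all libraries the P14 over P0 change did not pass (log2 fold change -0.71 ± 0.32 (SE), adjusted p = 0.0632), and without P14 replicate 2 it did, with a log2 fold change of -1.12 and an adjusted p of 1.06e-05. Hnrnph3 overlaps Rufy2, which was itself 0.97 higher at P14 on the log2 scale, and whether counting used strand is not given in the sources.

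Hnrnpl and Hnrnpll were the 2 hnRNP genes that rose. Both proteins bind CA-rich RNA, and hnRNP LL is best known for its control of Ptprc splicing in T cells. Hnrnpl, at chr7:28808546-28822268, had 314, 319, 350.4 and 348 scaled CPM at P0, 496, 709, 454 and 500.4 at P14 and 428, 446, 452 and 514 at P28. Every later library exceeded every P0 library, with P14 replicate 2 far above the rest, and the gene was 1.60-fold higher at P14 than at P0 (log2 fold change 0.68 ± 0.13 (SE), adjusted p = 0.00031). Hnrnpll, at chr17:80029487-80062268, had 114, 136, 120.3 and 130.0 scaled CPM at P0, 147, 230.1, 158 and 192 at P14 and 138, 151, 179 and 179.8 at P28. All of its P14 and P28 libraries lay above those of P0, and it was 1.43-fold higher at P14 than at P0 (log2 fold change 0.52 ± 0.14 (SE), adjusted p = 0.00447).

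The U group differed within itself. Hnrnpu encodes a scaffold attachment factor that links RNA and chromatin, and from P14 on was the most abundant hnRNP gene per kilobase of exon. Its values were 814, 844, 739.9 and 699 scaled CPM at P0, 626, 1134, 693 and 873 at P14 and 754, 832, 919.6 and 943 at P28, with overlap throughout and a P14 over P0 change of 0.07 ± 0.16 (SE, log2; adjusted p = 0.717; 95% confidence interval -0.28 to 0.41). Hnrnpul1, a related protein with a role in the response to DNA damage, had 82.3, 66.9, 77.5 and 69.4 scaled CPM at P14, against 174, 191, 185 and 208 at P0, a 2.55-fold fall (log2 fold change -1.35 ± 0.09 (SE), adjusted p = 2.44e-08). Hnrnpul2 had 193, 139, 196 and 178 scaled CPM at P14, against 318, 347, 356 and 330.4 at P0 (log2 fold change -0.95 ± 0.11 (SE), adjusted p = 4.42e-06). For both genes the libraries of the 2 ages did not overlap.

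Among SR genes the clearest rise was in Srsf9, the closest relative of Srsf1. At chr5:115327163-115333843 it had 42.3, 34.6, 34.5 and 31.5 scaled CPM at P0, 68.9, 115, 68.8 and 82.0 at P14 and 73.8, 76.2, 80.2 and 81.6 at P28. All 8 later libraries were above all 4 libraries of P0, and the gene was 2.29-fold higher at P14 (log2 fold change 1.19 ± 0.15 (SE), adjusted p = 9.26e-06). Srsf9 overlaps Gatc, which fell by 0.71 on the log2 scale between P0 and P14. Srsf1, the founding member of the family, had 347, 397, 335 and 366 scaled CPM at P0, 224, 375, 262 and 304 at P14 and 269.7, 297, 328 and 345 at P28, with overlap of P14 and P0 through P14 replicate 2. It passed narrowly as lower at P14 (log2 fold change -0.33 ± 0.14 (SE), adjusted p = 0.0494); the call was lost in 22 of 26 alternative analyses, with adjusted p from 0.00136 to 0.336, and the direction turned to 0.15 in the comparison of the tables without rescaling.

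Srsf5, Srsf6 and Srsf4 form a group of closely related SR proteins. Srsf5, at chr12:80945495-80950507, had 210.5, 198, 164 and 193 scaled CPM at P0, 288, 877, 271 and 492 at P14 and 326, 301, 358 and 397 at P28. All P14 and P28 libraries lay above P0, and the gene was 2.24-fold higher at P14 than at P0 (log2 fold change 1.17 ± 0.28 (SE), adjusted p = 0.00251). Without P14 replicate 2 that change was 0.82, with an adjusted p of 0.000545. Srsf6 had 268, 507, 284 and 386 scaled CPM at P14, against 290.4, 251, 213 and 254 at P0, with overlapping ranges, and passed as higher (log2 fold change 0.48 ± 0.17 (SE), adjusted p = 0.0228). That call was lost without P0 replicate 3, without P14 replicate 4 and in a fit of the 8 libraries of the comparison. Srsf4, the lowest SR gene per kilobase, went the other way, with 32.5, 28.7, 26.7 and 31.9 scaled CPM at P0, 21.1, 24.2, 22.1 and 23.1 at P14 and 24.2, 26.2, 30.0 and 30.4 at P28. All P14 libraries were below all P0 libraries (log2 fold change -0.40 ± 0.11 (SE), adjusted p = 0.00471), though the change was 0.08 if the tables were not rescaled.

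Srsf3 and Srsf7 are small SR proteins that also hand messenger RNA to the export receptor NXF1. Srsf3, at chr17:29032660-29043372, had 352, 351, 282 and 359 scaled CPM at P0, 189, 273, 216 and 248 at P14 and 160.4, 196, 199 and 195 at P28, and no P14 library reached a P0 library (log2 fold change -0.55 ± 0.13 (SE), adjusted p = 0.00164). This call was lost if the tables were compared without rescaling (-0.06, adjusted p = 0.669). Srsf7 had 255, 485, 295 and 351 scaled CPM at P14, against 278, 252, 228 and 257 at P0. It passed as higher (log2 fold change 0.41 ± 0.16 (SE), adjusted p = 0.0346), but the ranges overlapped and the call was lost in 7 of 26 alternatives, including without P14 replicate 2 (0.24, adjusted p = 0.0531), without P0 replicates 2, 3 or 4 and without P14 replicate 4.

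Srsf11, a cofactor of neuronal microexon splicing, had 287, 273, 197 and 241 scaled CPM at P0, 317, 557, 341 and 443 at P14 and 298, 303, 356 and 349 at P28. Its later libraries were all above P0, and it was 1.64-fold higher at P14 (log2 fold change 0.71 ± 0.17 (SE), adjusted p = 0.00209). The remaining SR genes did not pass at P14 against P0: Srsf2, which encodes the classical speckle protein SC35, had a log2 fold change of 0.12 ± 0.11 (SE), and Srsf10, a splicing repressor when dephosphorylated, had -0.13 ± 0.16. Srsf12, a close relative of Srsf10, had 42.0, 32.6, 29.8 and 34.4 scaled CPM at P0, 27.8, 31.2, 29.9 and 37.3 at P14 and 25.0, 27.5, 30.8 and 31.1 at P28, with overlap at all ages and a change of -0.13 ± 0.13 between P0 and P14.

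**Figure D3:**
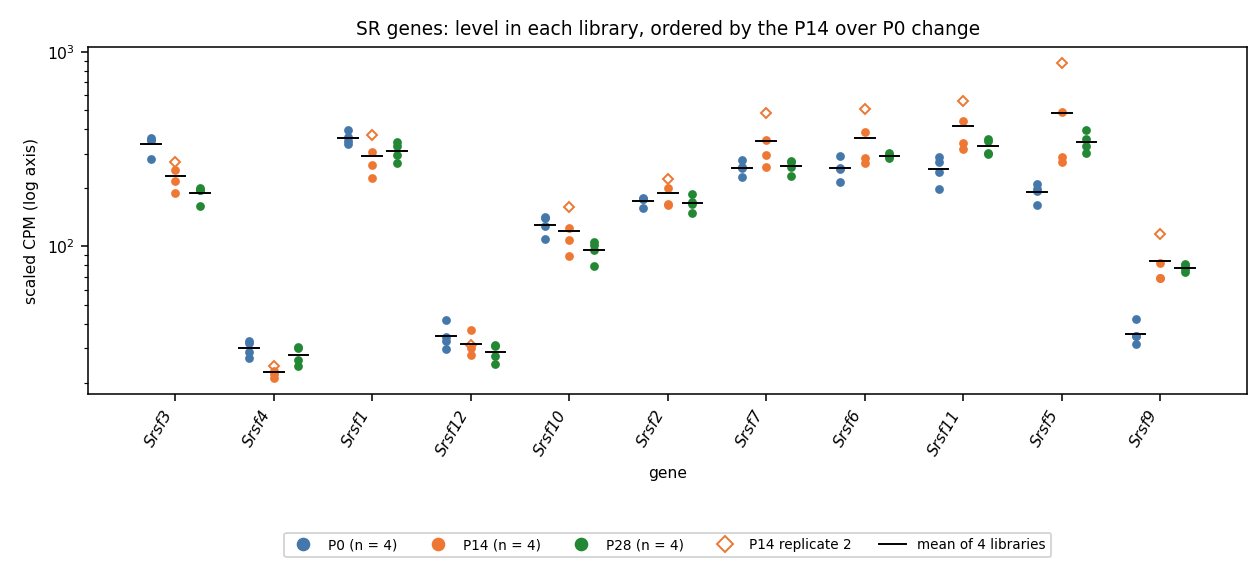
Scaled CPM on a log axis of each of the 11 SR genes in each of the 12 libraries, with the same colours, dashes and diamonds as in the plot of hnRNP levels. P14 replicate 2 is the highest P14 library for 10 of the 11 genes, and Srsf9, Srsf5 and Srsf11 have all P14 libraries above those of P0.

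Of all reads, the 20 hnRNP genes held 0.714, 0.692, 0.634 and 0.640% at P0, 0.402, 0.575, 0.421 and 0.479% at P14 and 0.388, 0.416, 0.431 and 0.449% at P28. The mean share was 0.670 ± 0.0390% at P0, 0.469 ± 0.0777% at P14 and 0.421 ± 0.0256% at P28 (SD, n = 4 each), and every later library lay below every P0 library. The 11 SR genes held 0.220, 0.209, 0.171 and 0.194% at P0, 0.197, 0.377, 0.209 and 0.277% at P14 and 0.189, 0.206, 0.226 and 0.230% at P28, with overlap of all 3 ages. The summed hnRNP level was 3.25, 3.31, 3.70 and 3.30 times the summed SR level at P0, 2.04, 1.52, 2.02 and 1.73 times at P14 and 2.06, 2.02, 1.90 and 1.95 times at P28. That ratio averaged 3.39 ± 0.210 at P0, 1.83 ± 0.245 at P14 and 1.98 ± 0.0683 at P28, and P0 stood clear of both later ages, with or without P14 replicate 2. These sums are descriptions of the chosen genes and were not tested.

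**Figure D4:**
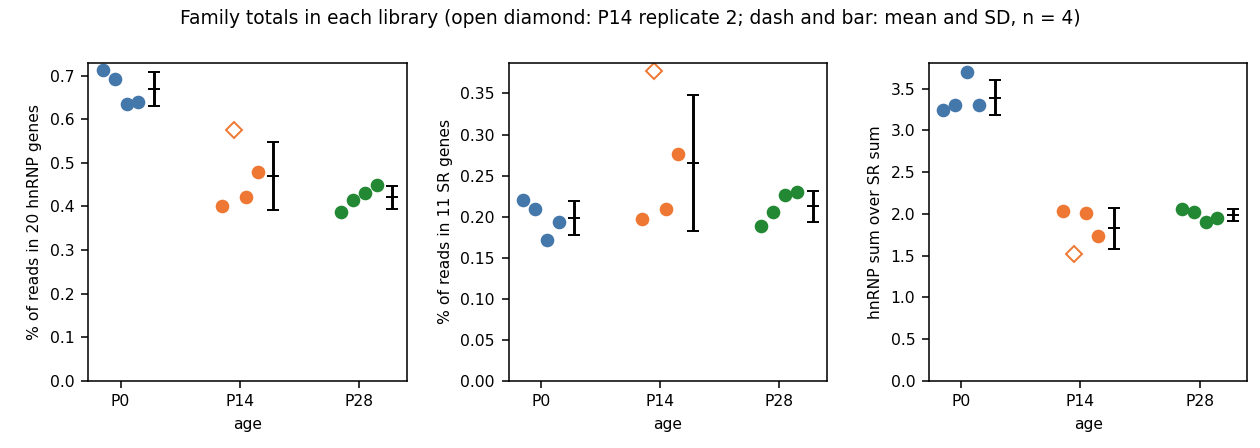
Share of reads in the 20 hnRNP genes (left), share in the 11 SR genes (middle) and ratio of the 2 sums (right) in each of the 12 libraries by age, with mean and SD (n = 4) as dash and bar and P14 replicate 2 as an open diamond. The hnRNP share and the ratio are higher in all P0 libraries than in any later one, and the SR share overlaps between ages.

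Ratios of related genes within a library show how the makeup of each subfamily shifted, as a description without a test. Against Hnrnpa2b1, Hnrnpa1 had a log2 ratio of -0.80 ± 0.16 at P0, -2.78 ± 0.69 at P14 and -2.27 ± 0.14 at P28 (SD, n = 4 each). In this pair the ratio of P14 replicate 2, -3.78, was the lowest of all libraries, and the other 3 P14 libraries still lay below P0. Hnrnpdl over Hnrnpd moved the other way, with 0.79 ± 0.13 at P0, 1.92 ± 0.13 at P14 and 2.19 ± 0.17 at P28. Hnrnpab over Hnrnpd was -0.52 ± 0.03 at P0, -1.74 ± 0.35 at P14 and -1.66 ± 0.18 at P28, and in both pairs all P0 libraries were clear of the later ones.

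Srsf9 over Srsf1 had a log2 ratio of -3.34 ± 0.24 at P0, -1.81 ± 0.12 at P14 and -1.99 ± 0.09 at P28. Srsf7 over Srsf3 changed sign, with -0.40 ± 0.09 at P0, 0.55 ± 0.19 at P14 and 0.46 ± 0.05 at P28, and no P0 library overlapped a later one. Srsf5 over Srsf6 was -0.40 ± 0.05 at P0, 0.29 ± 0.37 at P14 and 0.23 ± 0.14 at P28. By contrast Hnrnpll over Hnrnpl, with -1.41 ± 0.13 at P0, -1.57 ± 0.16 at P14 and -1.51 ± 0.13 at P28, and Srsf12 over Srsf10, with -1.90 ± 0.16 at P0, -1.91 ± 0.30 at P14 and -1.74 ± 0.06 at P28, overlapped between the ages. Between P14 and P28 the libraries overlapped in each of the 12 pairs.

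**Figure D5:**
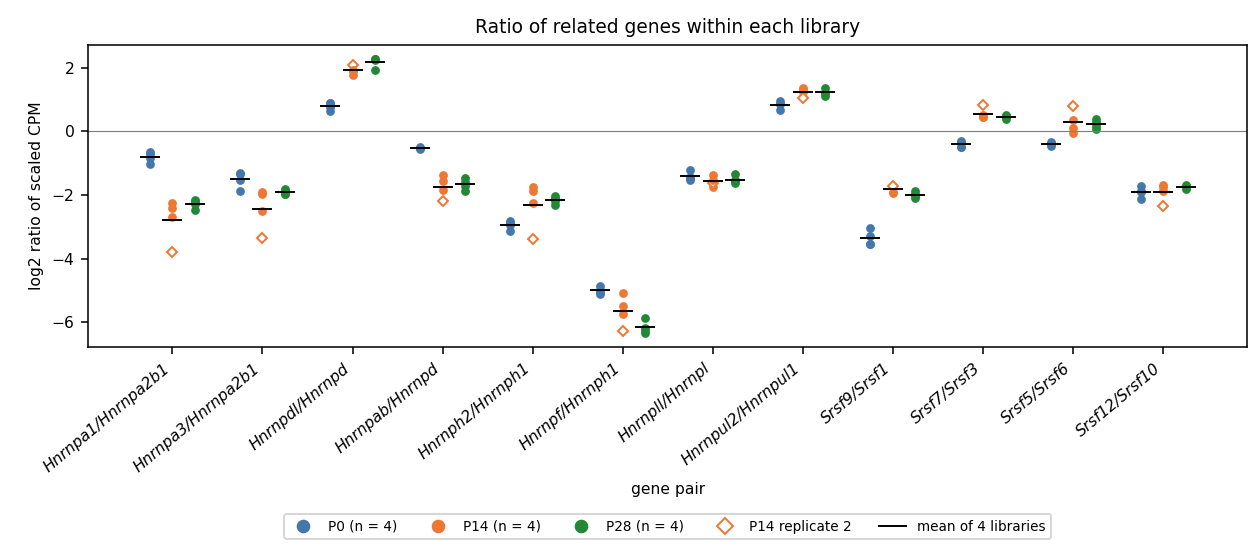
Log2 ratio of scaled CPM of 12 pairs of related genes in each library by age, with the mean of 4 libraries as a dash and P14 replicate 2 as an open diamond. Srsf7 over Srsf3 lies below 0 in all P0 libraries and above 0 in all later ones, and Hnrnpa1 over Hnrnpa2b1 drops after P0.

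Levels between genes can be compared only per length, here as scaled CPM per kilobase of annotated exon. At P0 Hnrnpa1 led the hnRNP genes with 430.1 ± 24.1, followed by Hnrnpk with 239 ± 18.1 and Hnrnpa2b1 with 206 ± 33.5 (SD, n = 4). The exon length used for Hnrnpa1, 1126 bases, was the shortest of the family, which raises its value. At P14 Hnrnpu led with 139.9 ± 38.2, Hnrnpa2b1 had 135 ± 36.7, Hnrnpdl 111 ± 19.6 and Hnrnpk 111 ± 7.62, so these neighbours did not differ beyond their spread. At P28 Hnrnpu, with 145 ± 14.6, led again, ahead of Hnrnpdl with 119.6 ± 16.2. Srsf7 was the highest SR gene per kilobase at each age, with 107 ± 8.66 at P0, 146 ± 42.3 at P14 and 109 ± 8.66 at P28, and Srsf4 the lowest, with 8.37 ± 0.759 at P0, 6.32 ± 0.378 at P14 and 7.74 ± 0.834 at P28.

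Between P14 and P28 fewer genes were called than between P0 and P14, in both families and among all tested genes. By limma 4 of the 20 hnRNP genes were lower at P28, namely Hnrnpa0, Hnrnpf, Hnrnpr and Hnrnpk, and 0 were higher, against 9.09% of all tested genes lower and 9.22% higher (18.3% in either direction). For hnRNP genes higher at P28, an unadjusted p of 0.05 also gave 0, as did edgeR and DESeq2. Of the 11 SR genes limma called 0 in either direction. Unadjusted p-values under 0.05 were found for 1 SR gene higher (Srsf4) and 2 lower (Srsf3 and Srsf7), edgeR called 0 in both directions, and DESeq2 called 1 higher and 0 lower. The median log2 fold change was -0.08 for hnRNP genes and -0.25 for SR genes, against -0.01 over all tested genes, and without P14 replicate 2 it was -0.09 and -0.08.

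The hnRNP calls between P14 and P28 were small and depended on single libraries. The count of 4 became 1 without P14 replicate 4, without P28 replicate 2 or without P28 replicate 3, and 2 without P28 replicate 1 or without P28 replicate 4. It became 5 without P14 replicate 2, where Hnrnpc also passed (adjusted p = 0.0415), 5 without P0 replicate 1, with upper quartiles or with edgeR, and 6 with DESeq2, library totals or quantile normalization. Hnrnpa0 passed in all 26 alternatives. Srsf4, at 24.2, 26.2, 30.0 and 30.4 scaled CPM at P28, against 21.1, 24.2, 22.1 and 23.1 at P14, had no overlap between the ages but missed the threshold (log2 fold change 0.28 ± 0.11 (SE), adjusted p = 0.0817), and passed without P14 replicate 2 with an adjusted p of 0.0421. Without P14 replicate 1, 2 SR genes passed as lower.

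Set against P0, the P28 libraries had 15 of the 20 hnRNP genes lower and 2 higher, against 35.6% of all tested genes lower and 35.7% higher (71.2% in either direction). The median fold change of hnRNP genes was 0.499, with 10 genes at least 2-fold lower (18% of all tested genes). Without rescaling 4 hnRNP genes were higher and 14 lower, and 4 SR genes were higher and 1 lower. Hnrnpa1 was 6.02-fold lower at P28 than at P0, Hnrnpab 5.30-fold and Hnrnpa0 5.21-fold. The 2 higher genes were again Hnrnpl (log2 fold change 0.46 ± 0.13 (SE), adjusted p = 0.00468) and Hnrnpll (log2 fold change 0.36 ± 0.14 (SE), adjusted p = 0.03). The Hnrnpll call was lost without P0 replicate 1, 3 or 4, without P28 replicate 3 or 4 and without both merged libraries. Hnrnph3 passed as lower only narrowly (log2 fold change -0.75, adjusted p = 0.0499), and its call was lost in 19 of 26 alternatives. Among these were edgeR and each other scaling, and adjusted p ran from 0.0001 to 0.200 over all 26. Its P28 libraries (35.0 to 39.2 scaled CPM) all lay below its P0 libraries (49.8 to 77.3). Without P14 replicate 2, which enters the shared estimate of spread, the change was -0.74 with an adjusted p of 0.000221.

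Of the SR genes, 3 (27.3%) were higher at P28 than at P0 and 2 (18.2%) lower, with a median log2 fold change of -0.04. Of all tested genes, 35.7% were higher and 35.6% lower. Srsf9 (log2 fold change 1.12 ± 0.15 (SE), adjusted p = 1.38e-05), Srsf5 (log2 fold change 0.85 ± 0.28 (SE), adjusted p = 0.0165) and Srsf11 (log2 fold change 0.40 ± 0.17 (SE), adjusted p = 0.049) were higher. Srsf3 was 1.79-fold lower (log2 fold change -0.84 ± 0.13 (SE), adjusted p = 4.28e-05), and Srsf10 also passed as lower (log2 fold change -0.43 ± 0.16 (SE), adjusted p = 0.0242). The Srsf11 call was lost in 14 of 26 alternatives. That of Srsf10 was lost in 6, with quantile normalization, without rescaling, without P0 replicate 1 or 2, without P28 replicate 1 and without both merged libraries. The Srsf5 call was lost without both merged libraries (adjusted p = 0.0614). Without P14 replicate 2 the adjusted p was 0.00814 for Srsf11, 0.00296 for Srsf10 and 0.000185 for Srsf5. Srsf6 and Srsf7, which passed as higher at P14 against P0, had 285 to 301 and 229.6 to 275 scaled CPM at P28, against 213 to 290.4 and 228 to 278 at P0, and did not pass.

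Proteins that work with both families were followed in lists, each read against the 34.5% of all tested genes that were lower and the 34.4% that were higher at P14 than at P0. Of 20 genes of proteins counted among hnRNPs under other names, 16 (80.0%) were lower at P14 than at P0 and 1 (5.0%) higher, against 34.5% and 34.4% of all genes, with a median log2 fold change of -0.81 (3 higher and 11 lower without rescaling; 1 higher and 18 lower without P14 replicate 2). Syncrip, which encodes hnRNP Q, had 209.8, 256, 251 and 243 scaled CPM at P0, 78.0, 68.9, 99.5 and 104 at P14 and 53.0, 55.1, 55.8 and 55.5 at P28 and fell in both steps (log2 fold change -1.47 ± 0.12 (SE), adjusted p = 1.98e-07 for P14 over P0, and log2 fold change -0.65 ± 0.12 (SE), adjusted p = 0.00333 for P28 over P14). Raly (log2 fold change -1.11 ± 0.13 (SE), adjusted p = 5.59e-06) and Elavl1, the gene of HuR (log2 fold change -0.86 ± 0.10 (SE), adjusted p = 6.56e-06), were lower at P14. Pcbp3, a poly(C)-binding protein, was the gene that rose, with 85.4, 71.5, 60.3 and 59.7 scaled CPM at P14, against 32.6, 32.9, 34.5 and 35.4 at P0 (log2 fold change 1.01 ± 0.11 (SE), adjusted p = 2.02e-06).

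Of 27 core proteins of the spliceosomal snRNPs, 21 (77.8%) were lower at P14 than at P0 and 2 (7.41%) higher, against 34.5% and 34.4% of all genes, with a median of -0.63 (6 higher and 11 lower without rescaling; 2 higher and 22 lower without P14 replicate 2). The count of 2 became 1 without P0 replicate 2, without P0 replicate 3 or without P14 replicate 4. Sf3a2, of the U2 snRNP, had 18.9, 21.6, 20.5 and 16.5 scaled CPM at P14, against 49.3, 46.2, 51.9 and 63.0 at P0 (log2 fold change -1.41 ± 0.12 (SE), adjusted p = 1.95e-07). Snrnp200, the helicase of the U5 snRNP, had 132, 82.2, 128 and 109 at P14, against 223, 284, 328 and 305 at P0 (log2 fold change -1.34 ± 0.15 (SE), adjusted p = 3.35e-06). Snrpd3, of the Sm ring, and Sf3b3, of the U2 snRNP, changed by -1.08 and -0.92, with adjusted p of 7.45e-07 and 1.23e-06.

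A further list of 13 genes held kinases of SR proteins and the nuclear import receptors Tnpo1, Tnpo2 and Tnpo3, not all specific to SR proteins. Of these 13, 8 (61.5%) were higher and 4 (30.8%) lower at P14 than at P0, against 34.4% and 34.5% of all genes. The lower genes were Tnpo1, Tnpo2, Tnpo3 and Dyrk1a, a share near that of all genes. The median of the 13 was 0.42 (9 higher and 2 lower without rescaling, 9 higher and 4 lower without P14 replicate 2). Clk1, a kinase that phosphorylates SR proteins in the nucleus, had 199.8, 158, 176 and 156 scaled CPM at P0, 390.5, 665, 407 and 567 at P14 and 490.1, 629.7, 726 and 839.8 at P28 (log2 fold change 1.52 ± 0.19 (SE), adjusted p = 8.7e-06 for P14 over P0). All later libraries were above P0. Srpk3, a kinase of the SRPK family best known from muscle, was scarce, with 5.29, 15.3, 3.71 and 7.05 at P14, against 1.08, 0.729, 0.236 and 0.374 at P0 (log2 fold change 2.79 ± 0.37 (SE), adjusted p = 1.64e-05), and at such levels the pseudocount understates the change. Tnpo3, the import receptor for SR proteins, was lower at P14 (log2 fold change -0.83 ± 0.09 (SE), adjusted p = 1.77e-06), and so was Dyrk1a, a kinase found in speckles (log2 fold change -0.91 ± 0.10 (SE), adjusted p = 2.2e-06).

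The 24 SR-related proteins, which carry such a domain without belonging to the Srsf genes, had 7 genes higher and 7 lower at P14 than at P0. These 29.2% each were near the 34.4% and 34.5% of all genes. The median was -0.03 (15 higher and 5 lower without rescaling, 7 higher and 9 lower without P14 replicate 2). Rsrp1 had 1046, 2739, 988 and 1446 scaled CPM at P14, against 425, 321, 264 and 197 at P0 (log2 fold change 2.29 ± 0.29 (SE), adjusted p = 1.02e-05), and Zranb2 had 391, 647, 417 and 581 at P14, against 166, 174, 135 and 156 at P0 (log2 fold change 1.66 ± 0.15 (SE), adjusted p = 4.28e-07). Scaf8, which binds the tail of RNA polymerase II, was lower at P14 (log2 fold change -1.16 ± 0.09 (SE), adjusted p = 7.25e-08). Srrm4, the neuronal activator of microexons, was lower too (log2 fold change -1.29 ± 0.10 (SE), adjusted p = 1.17e-07).

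Of 22 tested neuronal splicing regulators, 5 (22.7%) were higher and 10 (45.5%) lower at P14 than at P0, with a median of -0.20. The 68.2% called in either direction were close to the 68.9% of all genes, of which 34.4% were higher and 34.5% lower. Without P14 replicate 2 the counts were 7 higher and 11 lower. Other scalings gave 8 higher and 9 lower (library totals), 7 and 8 (quantile normalization) or 11 and 8 (without rescaling). Mbnl2, a regulator of adult brain splicing, had 173, 160.4, 202 and 233 scaled CPM at P14, against 21.1, 30.6, 33.6 and 29.4 at P0 (log2 fold change 2.73 ± 0.14 (SE), adjusted p = 2.03e-09). Khdrbs1, the gene of Sam68, had 91.6, 80.1, 95.9 and 97.7 at P14, against 243, 264, 259 and 263 at P0 (log2 fold change -1.49 ± 0.09 (SE), adjusted p = 5.37e-09), and Elavl3, of the neuronal Hu proteins, was also lower (log2 fold change -1.36 ± 0.11 (SE), adjusted p = 1.13e-07). Of 10 nonsense-mediated decay genes, 2 (20%) were higher and 3 (30%) lower at P14 than at P0, with a median of 0.02. Of all genes 34.4% were higher and 34.5% lower, and with 10 genes a difference from these shares was not tested. The higher and lower counts were 3 and 2 with library totals, 3 and 3 with upper quartiles, 6 and 0 without rescaling and 2 and 4 without P14 replicate 2. The main count of 2 higher became 1 without P0 replicate 2 or without P0 replicate 3. Smg6, the endonuclease of that pathway, was lower at P14 than at P0 (log2 fold change -0.54 ± 0.07 (SE), adjusted p = 2.18e-05) and higher at P28 than at P14 (log2 fold change 0.39 ± 0.07 (SE), adjusted p = 0.00346).

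All 4 members of a list of nuclear long noncoding RNAs were higher at P14 than at P0, against 34.4% of all genes, with a median of 1.42, and 3 of them without P0 replicate 3 or 4 or without P14 replicate 2 or 4. Meg3 had 1779.6, 1464, 891 and 1096 scaled CPM at P0, 4618, 13069, 4375 and 6477 at P14 and 5605, 4880.2, 5462 and 6027 at P28 (log2 fold change 2.35 ± 0.30 (SE), adjusted p = 1.19e-05 for P14 over P0). Malat1, a speckle RNA, had 293, 236, 108 and 161 at P0, 326, 946, 281 and 575 at P14 and 611, 445, 745 and 661 at P28 (log2 fold change 1.34 ± 0.37 (SE), adjusted p = 0.00526). Both were highest in P14 replicate 2, the library in which 10 of the 11 SR genes were also highest of their age. The share of all tested genes that were highest in it was not counted, and whether these are linked was not tested.

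Markers of other cells moved with age beside these genes. Summed scaled CPM is given as the range over libraries, P0 first, then P14, then P28. For 5 vessel markers it was 797 to 1424, then 159 to 214, then 117 to 137, and for 6 progenitor and cycling cell genes 159.9 to 224, then 26.3 to 62.1, then 18.3 to 22.8. Markers of oligodendrocytes, 5 genes, gave 59.7 to 74.6, then 871 to 2077, then 1527 to 2481, and 3 markers of their precursors 97.0 to 114, then 41.9 to 61.3, then 27.9 to 40.7. For 5 astrocyte markers the sums were 292 to 461, then 244 to 688, then 199.7 to 253. For 6 inhibitory neuron markers they were 203 to 237, then 195 to 311, then 276 to 358, and for 4 microglia markers 13.7 to 21.0, then 27.2 to 55.9, then 37.2 to 45.4. Among them Pvalb, an inhibitory neuron marker, was at 0 in P0 replicates 1 and 4, and Mobp, an oligodendrocyte marker, was at 0 in P0 replicate 3, while the other markers had reads in every library. The part of these other cells in the hnRNP and SR results was not tested.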

How the data were processed

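RNA-seq of polyadenylated nuclear RNA was deposited as 3 tables, 1 per age, listing 27219, 28826 and 30150 genes at P0, P14 and P28. The deposited unit is a signal, a normalized read count: per the submitters' processing notes DESeq2 and mm10 were used, without versions. No source used here states whether the ages were normalized together; separate normalization was inferred from the 1 table per age and the offset between the tables, and the values were therefore rescaled. The sources used here do not give the aligner, the counter, the strand counted or any filter. Per the labels, libraries were stranded, and P0 replicate 1 and P28 replicate 4 were merged. Within 0.05 reads, 100.0% of values in each of the 12 libraries were whole multiples of one step, so whole reads were recovered. Columns without a sample numbered 0.

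Each column was divided by its total over the 25834 shared genes and scaled by median-of-ratios factors over all 12 libraries (0.936 to 1.04). The filter asked for 1 scaled CPM in 4 libraries or more, and log2(scaled CPM + 0.5) of 15734 genes was tested, two-sided, with limma 3.58.1 (R 4.3.3; trend and robust, age as a factor, all 12 libraries, no block), with Benjamini-Hochberg adjustment over all genes and a threshold of 0.05. In that fit 10848 genes were called between P14 and P0, 2881 between P28 and P14 and 11207 between P28 and P0. On the recovered reads edgeR 4.0.16 (quasi-likelihood) called 10842, 3031 and 11101, and DESeq2 1.42.0 called 11041, 3876 and 11316. A small pseudocount understates changes of genes with low values. Alternatives, 26 per comparison, changed the pseudocount (0.1 or 2), the filter, the scaling, the tool, the libraries used or the block, or left out libraries. The code was tested on simulated data.

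Replicates are separate biological samples, per the labels. No library was a duplicate of another. Same-numbered libraries had correlations of deviations between -0.51 and 0.36. The values to expect without pairing were not worked out, so this check cannot decide whether the numbers pair samples. Promoter windows came from RefSeq (GRCm38.p6), gene coordinates from RefSeq and exon lengths from GENCODE M1. Members whose annotation overlaps another gene numbered 11. The pseudogene rows Hnrnpa1l2-ps2 (0 to 5 reads) and Srsf3-ps (3 to 24 reads) were left out. Members and gene lists were chosen with earlier results of these data known. Any member could be named, with values per library for the 3 largest rises and falls of each family in each step, related gene pairs and further members where a result turned on them; of other lists, up to 4 genes with the smallest adjusted p in P14 vs P0 were named.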

Additional observations from a re-analysis of the deposited data

Results flagged for a closer look

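Of 93 groups of 4 libraries (31 genes at 3 ages), 8 had one library far from the other 3 by Dixon's criterion, where chance flags about 1 group in 20. In P14 replicate 2, Hnrnpa1 was at 55.4 scaled CPM, with the other P14 libraries at 86.1 to 91.0, and Hnrnph2 was at 49.0, with the others at 78.8 to 85.7. At P0 replicate 3 was the lowest for Srsf2, with 157 and the others at 175 to 177, and for Srsf3, with 282 and the others at 351 to 359. Hnrnpa0 was highest in P0 replicate 4, at 437, with the other P0 libraries at 351 to 363. At P28 replicate 1 was the lowest for Srsf3, at 160.4 with the others at 195 to 199, and for Hnrnpdl, at 459 with the others at 611 to 619. Hnrnpk was lowest in P28 replicate 3, at 258, with the other P28 libraries at 273 to 275.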

How the results depend on the processing

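Across 26 alternatives, 15 of the 24 members called between P14 and P0 passed in every alternative, as did 1 of 4 between P28 and P14 (Hnrnpa0) and 17 of 22 between P28 and P0. Between P14 and P0 the calls lost somewhere were those of Hnrnpa2b1, Hnrnpc, Hnrnph1, Hnrnpm, Srsf1, Srsf3, Srsf4, Srsf6 and Srsf7. The change between P14 and P0 turned its sign for Srsf1 (0.15), Srsf12 (0.35), Srsf4 (0.0797), Hnrnpc (0.19) and Hnrnph2 (0.36) when the deposited tables were compared without rescaling, which took the median log2 fold change of all genes to 0.47, and to -0.20 between P28 and P14 and 0.27 between P28 and P0. In 47 further cases of 2418 a member changed sign while passing in neither analysis.

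Without rescaling, 5 hnRNP genes were higher and 0 SR genes lower at P14 than at P0, with medians of -0.39 (hnRNP) and 0.60 (SR). Between P28 and P14 it gave 8 hnRNP and 5 SR genes lower, with medians of -0.28 and -0.46, and between P28 and P0 4 hnRNP genes higher and 1 SR gene lower, with medians of -0.72 and 0.24. The hnRNP median between P14 and P0 was -0.79 with library totals, quantile normalization or edgeR, and between P28 and P14 it was -0.17 with edgeR or DESeq2. A fit of the 8 libraries of the comparison gave 3 SR genes higher at P14 than at P0. Without both merged libraries, 2 hnRNP genes were lower at P28 than at P14, and at P28 against P0 1 hnRNP gene was higher, 1 SR gene higher and 1 SR gene lower. DESeq2 called 1 SR gene higher at P28 than at P14, and quantile normalization 1 SR gene lower at P28 than at P0. The cause was not tested.

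With 1 library left out, SR genes higher ranged from 3 to 5 (P14 vs P0), 0 to 1 (P28 vs P14) and 2 to 3 (P28 vs P0), and SR genes lower from 2 to 3, 0 to 2 and 1 to 3. The hnRNP genes higher ranged from 2 to 2, 0 to 0 and 1 to 2, and those lower from 14 to 15, 1 to 5 and 14 to 15. The hnRNP median ranged from -1.05 to -0.83, -0.21 to -0.04 and -1.03 to -0.97, and the SR median from 0.04 to 0.18, -0.38 to -0.08 and -0.09 to 0.02. With the replicate number as a block, 14 hnRNP genes were lower at P14 than at P0, as without it, 3 (4 without it) were lower at P28 than at P14, and 2 SR genes (3 without it) were higher at P28 than at P0; the other family counts did not change. Whether same-numbered libraries share more than a number was not settled.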

Other observations

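The order of levels per kilobase within each family is given as a description, across genes that are not independent replicates. Between P0 and P14 Spearman's rho of that order was 0.737 over the 20 hnRNP genes and 0.718 over the 11 SR genes, and between P14 and P28 it was 0.991 and 0.982. Hnrnpab held rank 9 of the hnRNP genes at P0 and rank 19 at P14, and Hnrnpl rank 13 at P0 and rank 5 at P14. Among SR genes Srsf3 held rank 3 at P0 and rank 8 at P14, and Srsf5 rank 6 at P0 and rank 2 at P14.

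Some other transcripts of nuclear speckles and of SR protein control shared the high values of the SR genes in P14 replicate 2, and were picked for it after their values were seen. Clk4, a kinase of SR proteins, had 186, 445, 198 and 291 scaled CPM in P14 replicates 1 to 4, and Neat1, the paraspeckle RNA, had 7.34, 25.6, 5.38 and 9.28. Miat had 1077, 1859, 898 and 1291. For each of them replicate 2 was the highest and replicate 4 the next, as for Srsf5, Srsf6, Srsf7, Srsf9 and Srsf11. Why these 2 libraries stood higher was not tested. Other genes of the list of kinases and import receptors went the other way, with their lowest P14 value in replicate 2. Srpk2 had 269, 213, 283 and 277 scaled CPM in P14 replicates 1 to 4, Dyrk1a 97.8, 77.8, 103 and 92.2, and Tnpo3 81.2, 69.4, 86.2 and 71.6. The share of all tested genes with either pattern was not counted.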
